A study of Mus musculus with 8 samples.

Results

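The genes described here mark disease-associated microglia (DAM) and lipid-laden microglia, states that the brain's resident macrophages take up around dying cells, myelin debris and amyloid. A list of 32 genes was looked up by name in the deposited expression table, a model under the exact name was preferred, then the one with the highest mean, and a gene was kept if at least 2 of 8 libraries held at least 1 FPKM (mapped fragments scaled to gene length and library size). All 32 were found and 30 were kept, among 11146 named gene models that pass the same filter. Itgax, an integrin subunit, and Cst7, a cystatin-family protease inhibitor, were not kept, as each held at most 0.501 and 0.345 FPKM in 7 libraries and reached 9.50 and 1.86 FPKM in the remaining one. S100a4 lay just inside the filter, with 1.14 FPKM in Con replicate 2 and 26.1 FPKM in OGD_PARP14 replicate 2, and under 1 FPKM in the other 6 libraries.

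The cells were primary microglia from the brains of C57BL/6 mice at postnatal day 2, cultured with fetal bovine serum, and 8 libraries of polyadenylated RNA were sequenced. The Con and OGD_Con libraries are from cells given a control CRISPR activation plasmid, and the PARP14 and OGD_PARP14 libraries from cells given one aimed at Parp14, an ADP-ribosyltransferase gene, for 24 h. OGD, oxygen-glucose deprivation, is a culture model of ischaemia and lasted 6 h. It is named in the titles of OGD_Con and OGD_PARP14 only, although the treatment text of every sample mentions it, and groups follow the titles. Each group has 2 libraries, and the series' text speaks of 2 independent experiments without saying which library belongs to which, so the error behind each p-value is the scatter among these libraries and may be technical only.

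Estimated from the smallest steps in the values, depth was such that 1 FPKM over 1 kb rests on 13.4 to 17.0 fragments in each library. Of the defining microglia markers, Fcrls (1472 to 2046 FPKM in 7 libraries) was high, P2ry12 (1.99 to 3.95 FPKM) and Sall1 (0.860 to 1.31 FPKM) were low, and Siglech was listed at 0 in those 7. The gene model that holds Parp14, listed as Gm49730, stood at 61.4 and 50.7 FPKM in the Con pair, 12.2 and 11.5 in the pair labelled PARP14, 12.5 and 53.7 in the OGD_Con pair and 55.8 and 54.6 in the OGD_PARP14 pair. The activation target was thus lower in the pair labelled PARP14 than in Con, which goes against the labels, and the OGD_Con libraries differ from each other. Whether some libraries are in the wrong group was not tested, and every comparison rests on the labels. The library labelled OGD_PARP14 replicate 2 stood apart. Its correlation with the others over log2 values was 0.88 to 0.903, against 0.945 to 0.986 among the other 7. Groups were therefore compared over those 7 libraries, where OGD_PARP14 has 1 library that is assumed to vary like the rest, and then OGD_PARP14 replicate 2 was set against their range. In bulk RNA, fewer cells in a state and less RNA per cell cannot be told apart.

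DAM genes are known mainly from mouse models of Alzheimer's disease, ageing and demyelination. There, homeostatic genes fall and genes of phagocytosis, lysosomes and lipid uptake rise. Among those that rise are the apolipoprotein gene Apoe, the lipase gene Lpl and the matrix ligand gene Spp1. Part of this programme depends on signalling through the lipid-sensing receptor TREM2 and its adaptor TYROBP. Cells that take up more sterol and fatty acid than they can export store the excess in lipid droplets, which are coated by perilipin 2 (Plin2), and esterify cholesterol through SOAT1.

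The starts of 4 members are shown because their values carry the results below: Spp1 lay farthest above the other libraries in OGD_PARP14 replicate 2 on the log2 scale, and Lgals3, Mmp14 and Ch25h had the largest changes with OGD. Each is the 250 bases before the RefSeq start of the gene (build GRCm38.p6), in lower case, with matches to the motifs named next in capitals. The start of the deposited model lies 6109 bases from the RefSeq start for Lgals3 and 9712 for the Mmp14 model used, against 7 for Spp1 and 16 for Ch25h.
Spp1 (chr5:104434861-104435110, plus strand): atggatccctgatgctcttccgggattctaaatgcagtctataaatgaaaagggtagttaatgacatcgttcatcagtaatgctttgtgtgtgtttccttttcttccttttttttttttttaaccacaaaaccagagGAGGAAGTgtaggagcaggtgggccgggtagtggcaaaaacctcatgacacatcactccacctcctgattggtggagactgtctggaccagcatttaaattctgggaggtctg
Lgals3 (chr14:47373610-47373859, plus strand): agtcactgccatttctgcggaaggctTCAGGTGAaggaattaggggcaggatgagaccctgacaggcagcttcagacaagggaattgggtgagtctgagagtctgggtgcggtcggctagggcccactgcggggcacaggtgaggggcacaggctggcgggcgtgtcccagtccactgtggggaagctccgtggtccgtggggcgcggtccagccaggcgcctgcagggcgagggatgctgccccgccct
Mmp14 (chr14:54431348-54431597, plus strand): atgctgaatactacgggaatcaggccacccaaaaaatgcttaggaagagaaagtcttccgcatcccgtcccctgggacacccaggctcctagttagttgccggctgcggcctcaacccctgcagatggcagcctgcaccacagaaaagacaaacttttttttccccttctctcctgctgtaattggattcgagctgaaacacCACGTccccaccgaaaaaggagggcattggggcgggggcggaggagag
Ch25h (chr19:34475149-34475398, minus strand): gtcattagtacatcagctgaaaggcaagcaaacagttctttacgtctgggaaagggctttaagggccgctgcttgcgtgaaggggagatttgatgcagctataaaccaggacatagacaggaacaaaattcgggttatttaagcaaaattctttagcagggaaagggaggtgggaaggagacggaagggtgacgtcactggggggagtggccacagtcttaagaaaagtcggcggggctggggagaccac
Capitals mark GAGGAAGT, a PU.1 motif, upstream of Spp1 and CACGT, the reverse complement of the hypoxia response core ACGTG, upstream of Mmp14. Upstream of Lgals3 they mark TCAGGTGA, which fits TCANGTGA, a loose pattern searched for the MITF and TFE family. Its N admits any base, here G, so a match need not be a motif of that family. In the window of Ch25h no motif searched was found. Of the 30 members kept, 25 had a promoter entry. The hypoxia core was in 4 of them (16.0%) and in 16.6% of all 32851 promoter windows of that length. TCANGTGA was in 1 (4.0%, against 3.46% of all), the PU.1 motif in 2 (8.0%, against 2.44%), the AP-1 motif TGANTCA in 2 (8.0%, against 6.75%) and the E-box CACGTG in 0 (against 6.02%). Both strands were searched, each CACGTG also holds ACGTG, and a match is a description of the letters, not of binding.

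The levels of the members spanned a wide range in the 7 similar libraries. FPKM is a level per length, so genes can be set side by side. Lyz2, which encodes lysozyme, was highest at 3978 to 5541 FPKM. Apoe, the gene of the main apolipoprotein of brain cholesterol transport, followed at 1737 to 2426 FPKM. The ranges of these genes did not overlap. Cd52, a small surface glycoprotein gene, held 523 to 710.0 FPKM and Anxa5, which encodes a phosphatidylserine-binding annexin, 364 to 382 FPKM. Lgals1, a galectin gene, followed at 222 to 322 FPKM, Gpnmb, a lysosomal and surface glycoprotein gene, at 152 to 223 FPKM and Spp1, osteopontin, at 149 to 196 FPKM, and the ranges of these neighbours overlapped. At the lower end, Fabp4, a fatty acid chaperone gene, held 3.04 to 5.37 FPKM, Mmp14, a membrane-anchored metalloproteinase gene, 2.52 to 6.73 FPKM, and the calcium-binding protein genes S100a6 and S100a4 0.758 to 2.09 and 0.557 to 1.14 FPKM. The 30 members together made up 2.75% to 3.56% of the summed FPKM of each of the 7 libraries. Without Lyz2 and Apoe it was 0.791% to 0.903%.

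**Figure D1:**
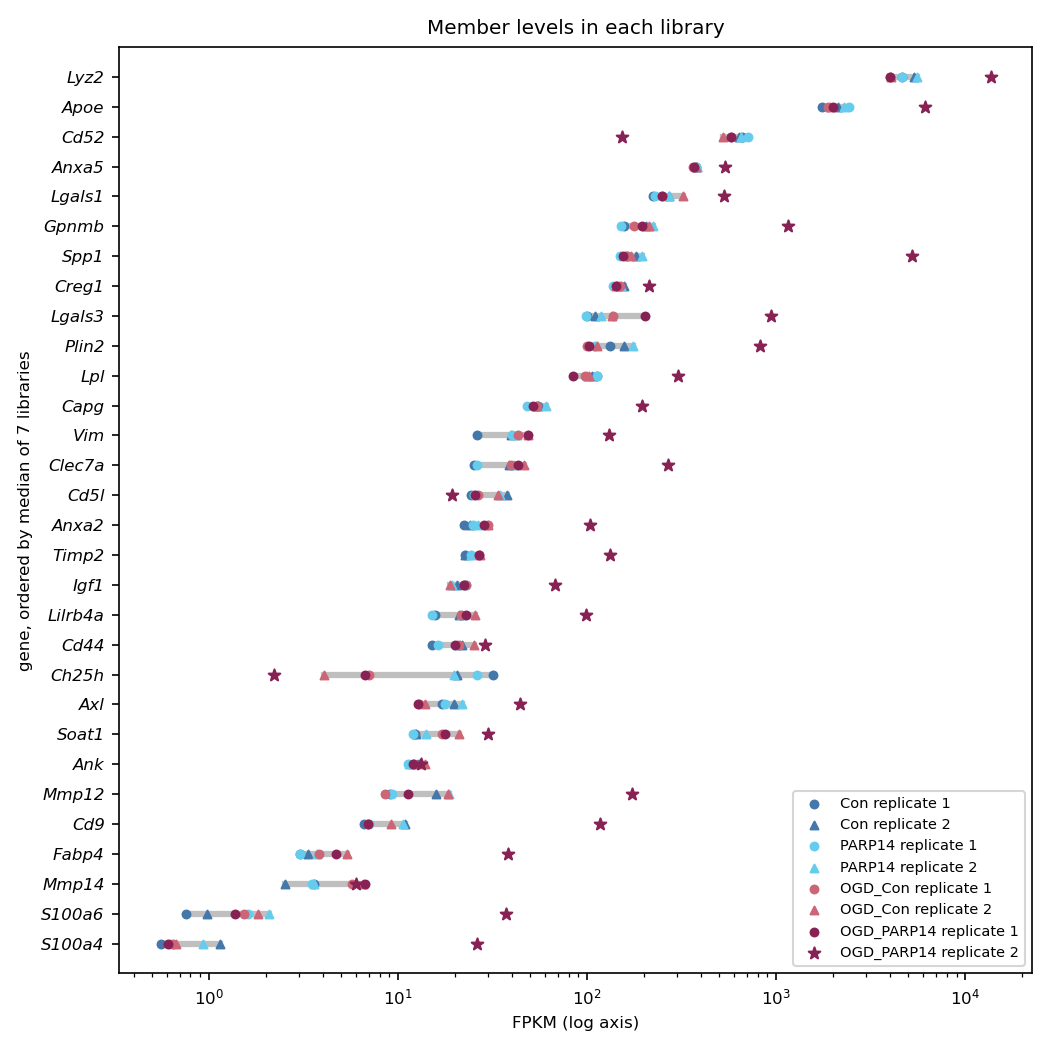
FPKM of the 30 members kept (log axis) in each library, with 1 symbol per library and grey bars from the lowest to the highest of the 7 similar libraries. Most stars, which stand for OGD_PARP14 replicate 2, lie to the right of the bar, whereas those of Cd52, Ch25h and Cd5l lie to its left.

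With OGD the set did not move as a block: single members rose and others fell. Ch25h, which makes the oxysterol 25-hydroxycholesterol, and Axl, a receptor kinase for apoptotic cells, fell, while the lectin gene Lgals3, the protease gene Mmp14 and the sterol esterification gene Soat1 rose. Averaged over both plasmids, limma called 5 of 30 members higher (16.7%, against 14.9% of all models tested) and 3 lower (10.0%, against 17.9%). The shares called lie near or below those of all models in this fit. With the replicate number as a block, given at the end, the members' share called higher was above that of all models. With OGD_PARP14 replicate 2 included and no block, 1 member was called higher (3.33%, against 2.65% of all models) and 1 lower (3.33%, against 3.53%). The median log2 fold change of the members was -0.001, that of all models -0.02, and 15 members lay above 0 and 15 below. In the fit to all 8 libraries the members' median was 0.55, with 26 above 0 and 4 below, and that of all models -0.05. Because 1 was added to each FPKM value before taking log2, fold changes of low genes come out too small.

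**Figure D2:**
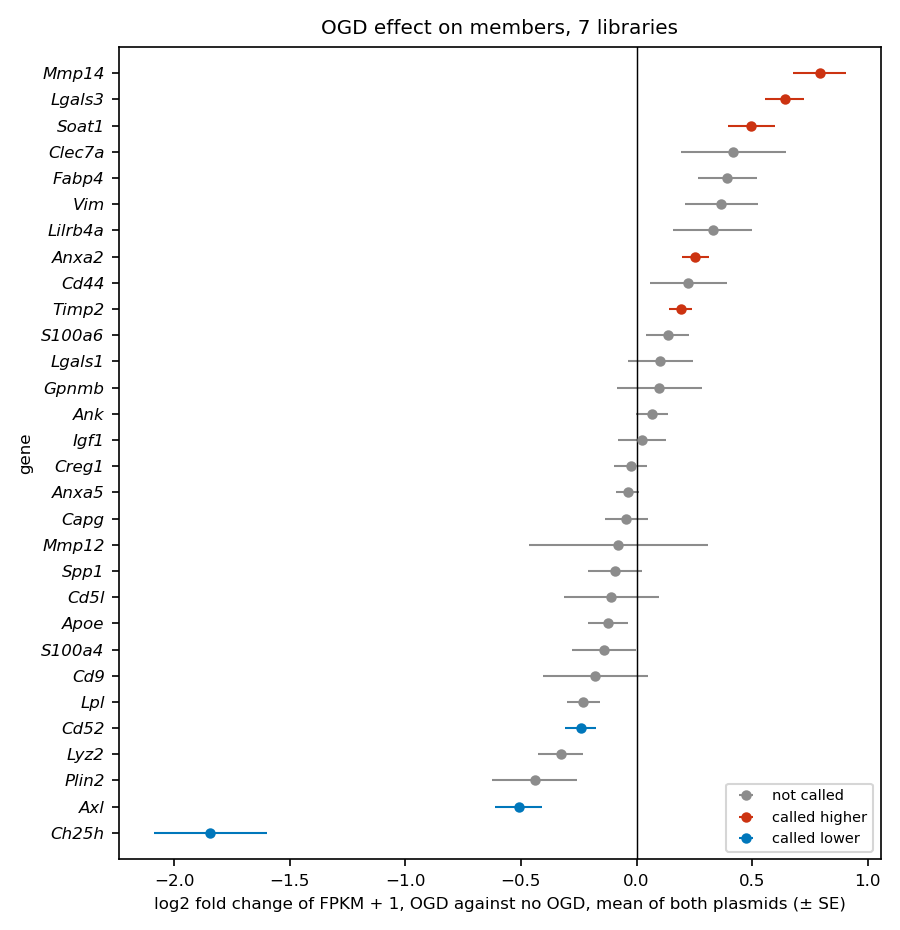
Log2 fold change of FPKM + 1 with OGD for the 30 members, averaged over both plasmids in 7 libraries, with the moderated SE of limma as bars. The 5 members called higher are red, the 3 called lower blue, and Ch25h at -1.84 lies farthest from 0.

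Ch25h had the largest change of any member. Its model lies on chr19:34473778-34475164 (minus strand), given, like all model positions here, as deposited, which match GRCm38. It held 31.8 and 20.5 FPKM in the Con pair, 26.2 and 19.7 in the PARP14 pair, 6.99 and 4.08 in the OGD_Con pair, and 6.68 in OGD_PARP14 replicate 1. All 3 libraries with OGD lay below all 4 without it, and the log2 fold change was -2.06 (SE 0.31) for the control plasmid and -1.63 (SE 0.38) for the other. The average over plasmids was -1.84 (SE 0.24, limma adjusted p = 0.00605). The libraries labelled Con held 26.1 ± 8.0 FPKM and those labelled OGD_Con 5.54 ± 2.06 (SD, n = 2 libraries each). OGD_PARP14 replicate 2 held 2.22 FPKM, lower still, and fitting all 8 libraries gave log2 fold change -2.16, SE 0.33, limma adjusted p = 0.0267.

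Mmp14 rose with OGD. MMP14 cleaves collagen and activates other metalloproteinases at the cell surface. The table splits the gene into a pair of models, and the rule took that with the higher mean, chr14:54441310-54442180, 871 bases in the last part of the gene with no strand given. It held 3.60 and 2.52 FPKM in the Con pair, 3.53 and 3.60 in the PARP14 pair, 5.75 and 6.53 in the OGD_Con pair, and 6.73 in OGD_PARP14 replicate 1. The 3 libraries with OGD lay above the other 4 (log2 fold change 0.79, SE 0.11, limma adjusted p = 0.0074), and OGD_PARP14 replicate 2, at 6.03 FPKM, lay among them. The longer model, from 54431612 to 54441265 on the plus strand, held 1.30 to 1.54 FPKM in the 4 libraries without OGD and 2.53 to 2.98 in the 3 with it, and 1.97 in OGD_PARP14 replicate 2.

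Lgals3 encodes galectin-3, a lectin that binds damaged lysosomes and phagocytic cargo, and lies on chr14:47367751-47386572 (plus strand). It held 100.6 and 109.8 FPKM in the Con pair, 99.2 and 118 in the PARP14 pair, 138 and 136 in the OGD_Con pair, and 204 in OGD_PARP14 replicate 1. Every library with OGD was above every library without it, and OGD_PARP14 replicate 1 was the highest of the 7. The change averaged over plasmids was 0.64 (SE 0.09, limma adjusted p = 0.00617), and Lgals3 was also the 1 of 30 members called in OGD_PARP14 against PARP14 (log2 fold change 0.90, SE 0.13, limma adjusted p = 0.0215). Its call for the averaged change was kept without each of 6 libraries in turn and lost with all 8 libraries (limma adjusted p = 0.175). OGD_PARP14 replicate 2 held 934 FPKM. The call in OGD_PARP14 against PARP14 was lost without PARP14 replicate 1 (limma adjusted p = 0.0633) and without either OGD_Con library (limma adjusted p = 0.0505 each).

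Soat1, the gene of the enzyme that esterifies cholesterol for storage, and Axl moved in opposite directions. Soat1 held 12.3 and 12.5 FPKM in the Con pair, 12.003 and 14.1 in the PARP14 pair, 17.1 and 21.1 in the OGD_Con pair, and 17.7 in OGD_PARP14 replicate 1, with the OGD libraries above the others (log2 fold change 0.50, SE 0.10, limma adjusted p = 0.0196). Axl held 17.0 and 19.9 FPKM in the Con pair, 17.8 and 21.8 in the PARP14 pair, 12.9 and 13.8 in the OGD_Con pair, and 12.8 in OGD_PARP14 replicate 1, with the OGD libraries below the others (log2 fold change -0.51, SE 0.10, limma adjusted p = 0.0182). Neither passed in the fit to all 8 libraries, where Soat1 had log2 fold change 0.68, SE 0.18, limma adjusted p = 0.0843 and Axl log2 fold change -0.08, SE 0.36, limma adjusted p = 0.91, and OGD_PARP14 replicate 2 held 30.0 and 44.1 FPKM. Without Con replicate 1, Con replicate 2 or PARP14 replicate 1 the call of Soat1 was lost (limma adjusted p = 0.0582, 0.0539 and 0.0515), and that of Axl without OGD_Con replicate 1 (limma adjusted p = 0.0553).

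Anxa2, an annexin gene of membrane repair, Timp2, a metalloproteinase inhibitor gene, and Cd52 had the smallest changes among the called members. Anxa2 held 22.4 to 26.4 FPKM in the 4 libraries without OGD and 28.6 to 30.0 in the 3 with it (log2 fold change 0.25, SE 0.06, limma adjusted p = 0.0291). Timp2 held 22.5 to 24.3 FPKM without OGD and 26.8 to 27.0 with it (log2 fold change 0.19, SE 0.05, limma adjusted p = 0.0396). Cd52 held 637 to 710.0 FPKM without OGD and 523 to 576 with it (log2 fold change -0.24, SE 0.07, limma adjusted p = 0.0467). None of these groups overlapped. The calls of Timp2 and Cd52 were lost without each of 6 libraries in turn (limma adjusted p = 0.0814 to 0.0997 and 0.0573 to 0.115), that of Anxa2 without 5 of 6 (limma adjusted p of 0.058 to 0.0803), and all 3 with all 8 libraries (limma adjusted p = 0.299, 0.363 and 0.314 for Anxa2, Timp2 and Cd52). In that fit their log2 fold changes were 0.71 (SE 0.38), 0.76 (SE 0.47) and -0.72 (SE 0.40).

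In each of the 3 libraries with OGD, 7 of 30 members (23.3%) were above all 4 libraries without it, against 22.1% of all models, and 5 (16.7%) were below, against 26.7%. Members that separated in this way without being called were Vim, Fabp4, Lyz2 and Anxa5. Vim, which encodes the intermediate filament vimentin, held 26.1 to 42.5 FPKM without OGD and 43.4 to 48.7 with it (log2 fold change 0.37, SE 0.16, limma adjusted p = 0.136). Lyz2 held 4606 to 5541 FPKM without OGD and 3978 to 4041 with it (log2 fold change -0.33, SE 0.10, limma adjusted p = 0.0532). Several other members did not pass the test. Spp1 had a log2 fold change of -0.09 (SE 0.12), Gpnmb 0.10 (SE 0.18), Apoe -0.12 (SE 0.09), Cd9 -0.18 (SE 0.23), Lpl -0.23 (SE 0.07) and Clec7a 0.42 (SE 0.23). Plin2, the lipid droplet coat gene, held 133 and 157 FPKM in the Con pair, 111 and 174 in the PARP14 pair, 99.5 and 113 in the OGD_Con pair, and 102 in OGD_PARP14 replicate 1, and the groups overlapped (log2 fold change -0.44, SE 0.18, limma adjusted p = 0.126).

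For the control plasmid alone, OGD_Con against Con, limma called 5 of 30 members higher (16.7%, against 10.7% of all models) and 1 lower (3.33%, against 12.4%). Those called were Ch25h (-2.06), Mmp14 (0.83), Soat1 (0.58), S100a6 (0.52), Anxa2 (0.35) and Timp2 (0.25), with limma adjusted p of 0.0129 to 0.0486. S100a6 held 0.758 and 0.974 FPKM in the Con pair and 1.54 and 1.81 in the OGD_Con pair, while PARP14 held 1.61 and 2.09 and OGD_PARP14 replicate 1 held 1.38. OGD_PARP14 replicate 1 lay below both PARP14 libraries. The interaction of S100a6 was -0.77 (SE 0.19, limma adjusted p = 0.981). Leaving out OGD_Con replicate 2 ended all 6 calls and leaving out Con replicate 1 all but that of Mmp14. With all 8 libraries 0 members were called (0.161% of all models higher and 0.108% lower), and 2 had an unadjusted p under 0.05 (6.67%, against 19.2% of all models).

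In OGD_PARP14 against PARP14, 1 of 30 members was called higher (3.33%, against 5.54% of all models) and 0 lower (against 5.17%). An unadjusted p under 0.05 was found for 6 (20.0%, against 29.6% of all models). Ch25h (-1.63, limma adjusted p = 0.057), Mmp14 (0.76, 0.0577) and Axl (-0.58, 0.0795) had the direction they had in OGD_Con against Con and missed the threshold. With all 8 libraries 0 members were called (0.126% of all models higher and 0.0897% lower), 4 had an unadjusted p under 0.05 (13.3%, against 14.5% of all models), and the median log2 fold change of the members was 0.88, against -0.07 for all models and -0.02 for the members without OGD_PARP14 replicate 2.

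No member passed the test between plasmids. In PARP14 against Con, 0 of 30 members were called by limma (0.0538% of all models were, in either direction), and 2 had an unadjusted p under 0.05 (6.67%, against 2.98%). Those with the smallest p were S100a6 (0.61, SE 0.12, limma adjusted p = 0.991), Apoe (0.30, SE 0.11, limma adjusted p = 1) and Anxa2 (0.13, SE 0.08, limma adjusted p = 1). The SEs of the members ran from 0.06 to 0.49 with a median of 0.14, against 0.10 for all models. In OGD_PARP14 against OGD_Con, 0 members were called (0.0987% of all models) and Lgals3 alone had an unadjusted p under 0.05, as had 3.4% of all models (log2 fold change 0.57, SE 0.13, limma adjusted p = 1). Lpl (-0.24, SE 0.11) and S100a6 (-0.17, SE 0.15) followed. In the interaction of OGD and plasmid 0 members were called (0.0807% of all models), with 2 at an unadjusted p under 0.05 (6.67%, against 3.44%), S100a6 and Lgals3 (0.53, SE 0.17, limma adjusted p = 1), and -0.20 for Anxa2 (SE 0.12, limma adjusted p = 1). With all 8 libraries 0 members were called in each of these 3 comparisons, where 0.00897%, 0% and 0.00897% of all models were called. An unadjusted p under 0.05 was found for 0, 1 and 0 members and for 0.987%, 3.47% and 1.89% of all models.

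Other genes of the same programme are given from 4 further lists. Of 27 tested genes of the wider DAM signature, 6 rose and 1 fell with OGD averaged over plasmids (median log2 fold change 0.15), and for all 4 lists the shares of all models are 14.9% higher and 17.9% lower. Cd83, an activation marker gene of dendritic cells and microglia, rose and held 10.1 to 15.1 FPKM in the libraries without OGD and 65.0 to 85.6 with it (log2 fold change 2.62, SE 0.19, limma adjusted p = 0.00125), Gas2l3 rose by 2.43 and the cathepsin gene Ctsz by 0.35, while Gusb, a lysosomal glucuronidase gene, fell by 0.86. Of 15 tested lipid droplet and foam-cell genes, 5 rose and 0 fell (median 0.13). Hilpda, a hypoxia-induced inhibitor of lipid droplet breakdown, rose and held 3.94 to 5.86 FPKM without OGD and 38.0 to 66.6 with it (log2 fold change 3.11, SE 0.23, limma adjusted p = 0.00147), and Nceh1, a cholesteryl ester hydrolase gene, and Abhd5, a lipase co-activator gene, rose by 1.00 and 0.54. Of 11 regulators, 3 rose and 2 fell (median 0.06). The transcription factor genes Bhlhe40 (4.30), Bhlhe41 (2.99) and Pparg (0.73) rose and Tfe3 (-0.23) and Rxra (-0.26) fell. Of 13 tested homeostatic microglia genes, 0 rose and 5 fell (median -0.29), with Tmem119 at -1.05 and the phagocytic receptor gene Mertk at -0.64. The median of all models was -0.02. In the fit to all 8 libraries the medians of the lists were 0.44, 0.40, 0.23 and -0.07 in the same order, and that of all models -0.05. With OGD_PARP14 replicate 2 included, 2, 4, 3 and 0 genes of these lists were called higher and 0, 0, 0 and 1 lower. In that fit 2.65% of all models were called higher and 3.53% lower.

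OGD_PARP14 replicate 2 differed from the 7 similar libraries in most members. This library was singled out with its values known, and the high values of Spp1, Gpnmb and Lgals3 were among them, so what follows is a description with no test. In it 25 of 30 members (83.3%) lay above each of the other 7 libraries, against 20.7% of all models, 3 (10.0%) lay below each, against 38.5%, and 2 lay within their range. Of all 32 genes of the list, Itgax and Cst7 included, 27 lay above and 3 below. At least 1 log2 unit above the highest of the others lay 19 of 30 members (63.3%, against 2.48% of all models). At least 1 log2 unit below the lowest lay 1 (3.33%, against 3.48%). S100a4 is among the 25 and the 19 and passed the filter only through its value in this library. The shares of all models rest on the same filter. The median difference of the members from the median of the other 7 was 1.61 on the log2(FPKM + 1) scale, that of all models -0.12. The 30 members took up 10.1% of the summed FPKM there.

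**Figure D3:**
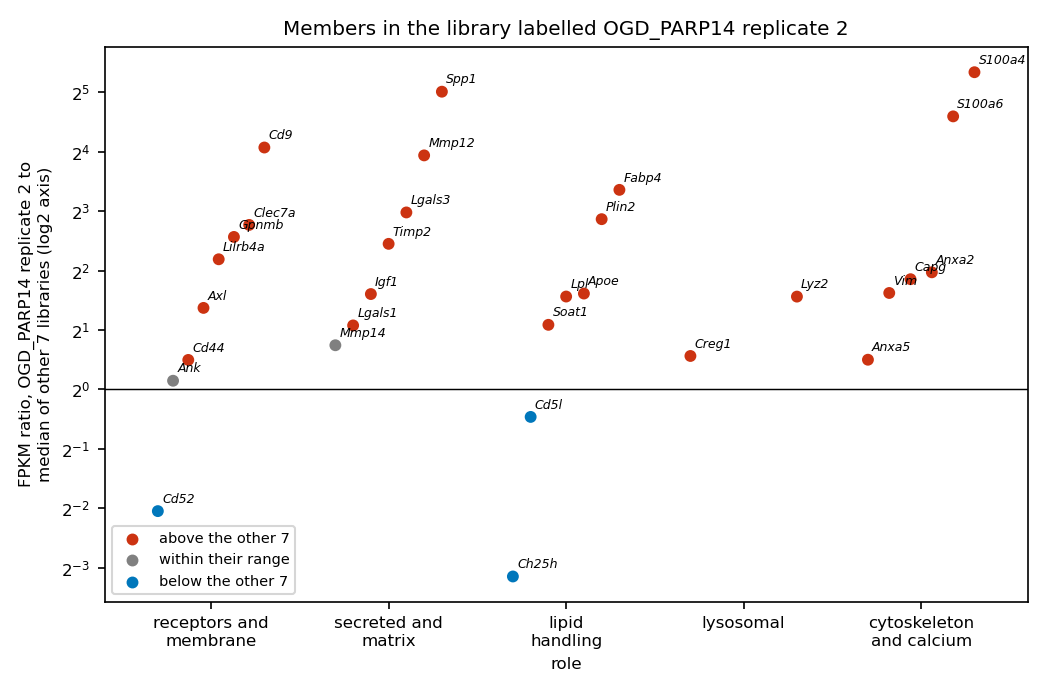
Ratio of FPKM in OGD_PARP14 replicate 2 to the median of the other 7 libraries (log2 axis) for the 30 members, by role, with colour for the place relative to the range of the other 7. The 25 red points, members above each of the other libraries, are found in every role, and Cd52, Ch25h and Cd5l are the 3 blue ones.

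Among receptors and membrane glycoproteins 6 of 8 lay above. Cd9, a tetraspanin gene used as a DAM marker, stood at 118 FPKM against 6.65 to 10.8 in the other 7, 10.9 times their highest. Clec7a, the beta-glucan receptor dectin-1, stood at 269 FPKM against 25.2 to 46.6, and Gpnmb at 1156 against 152 to 223. Each lay above all 7 other libraries. Lilrb4a, an inhibitory receptor gene that shares its model with Lilr4b and Gm49339, stood at 99.0 FPKM against 15.2 to 25.6 and Axl at 44.1 against 12.8 to 21.8. Cd44, the hyaluronan receptor gene, was only just above, at 28.9 FPKM against a highest of 25.2. Ank, a pyrophosphate transporter gene in a model joined with a microRNA, lay within the range at 13.3 FPKM against 11.3 to 13.9. Cd52 went the other way, to 154 FPKM against 523 to 710.0. Itgax, the CD11c gene, held 9.50 FPKM against 0.0771 to 0.501.

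Among secreted ligands and matrix proteins 6 of 7 lay above. Spp1, whose product osteopontin binds integrins and CD44, stood at 5231 FPKM against 149 to 196, 26.7 times the highest of the others, in a model joined with Gm42793 on chr5:104435118-104441050 (plus strand). Mmp12, the macrophage elastase gene, stood at 173 FPKM against 8.55 to 18.5, and Lgals3 at 934 against 99.2 to 204. Timp2, at 133 FPKM against 22.5 to 27.0, and the growth factor gene Igf1, at 68.0 against 18.9 to 22.9, were 4.92 and 2.97 times their highest values elsewhere. Lgals1 stood at 527 FPKM against 222 to 322. Mmp14 alone of these lay within the range.

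Among lipid-handling genes 5 of 7 lay above and 2 below. Plin2 stood at 825 FPKM against 99.5 to 174, and Fabp4 at 38.3 against 3.04 to 5.37. Apoe stood at 6114 FPKM against 1737 to 2426, and Lpl, which releases fatty acids from lipoproteins, at 303 against 84.2 to 113. Each of these 4 was at least 2.52 times its highest value elsewhere. Soat1 stood at 30.0 FPKM against a highest of 21.1. Below the others were Ch25h, at 2.22 FPKM against a lowest of 4.08, and Cd5l, a secreted scavenger-receptor family protein gene, at 19.3 against a lowest of 24.4.

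Of the remaining groups, all 8 members lay above, among them S100a4, which passed the filter only through this library. S100a4 and S100a6 stood at 26.1 and 37.3 FPKM against highest values of 1.14 and 2.09, and S100a4 shares its model with S100a3 and Gm42674. Vim stood at 131 FPKM against 26.1 to 48.7, Anxa2 at 104 against 22.4 to 30.0, and Capg, which encodes an actin-capping protein, at 196 against 48.4 to 60.8. Anxa5 was 1.40 times its highest value elsewhere, where it ranged from 364 to 382 FPKM. Lyz2 stood at 13599.7 FPKM, above every other member there, and Creg1, a lysosomal glycoprotein gene, at 212 against a highest of 157.

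The further lists moved in part with the members in that library. Of the wider DAM signature 20 of 27 tested genes lay above the other 7 libraries and 2 below (median log2 difference from their median 1.21). For this and the next 3 lists the shares of all models are 20.7% above and 38.5% below. The genes named from these lists for this library were chosen after their values were seen. The receptor gene Trem2, in a model joined with Treml1, stood at 87.9 FPKM against 11.1 to 18.8. Its adaptor gene Tyrobp stood at 1346 against 976 to 1093, and the lysosomal protease gene Ctsd, in a joined model, at 2953 against 699 to 856. Below were B2m, at 3953 FPKM against 4326 to 5100, and Hif1a, in a joined model, at 5.64 against 6.98 to 9.90. Cd83, at 42.2 FPKM, and Gas2l3, at 6.40, lay between the libraries without OGD and the others with it. Of lipid droplet and foam-cell genes 9 of 15 lay above and 2 below (0.70). The fatty acid scavenger receptor gene Cd36 was among those above, at 691 FPKM against 239 to 334, whereas Hilpda, at 11.7 FPKM, lay between the libraries without OGD and those with it. Of 11 regulators 3 lay above and 4 below (0.13). Above were Pparg, Mitf at 13.5 FPKM against 6.26 to 7.92 and Nr1h3, the gene of a sterol-sensing nuclear receptor, in a joined model at 11.4 against 2.60 to 4.13. Below were Spi1, at 109 FPKM against 187 to 216, and Nr1h2, at 12.9 against 16.5 to 18.2. Ppard, at 1.07 FPKM against 3.13 to 5.22, and Tfe3, at 15.3 against 16.6 to 20.1, were the others below. Bhlhe40 held 2.96 FPKM in this library, against 28.4 to 46.5 in the other 3 libraries with OGD and 0.590 to 0.986 in those without. Of 13 homeostatic genes 8 lay above and 2 below (0.43). Fcrls, at 74.0 FPKM against 1472 to 2046, and Tmem119, at 1.88 against 5.22 to 12.5, were those below.

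Sums of markers of other cells also differed in that library for some lists. The fibroblast and mural list, of which 0 of 8 genes passed the filter, summed to 0.998 FPKM there, against 0.193 to 0.693 in the other 7. Col1a1, Col1a2, Col3a1 and Acta2 lay above the other 7, with Acta2 at 0.556 FPKM against at most 0.512 and Col1a1 at 0.214 against at most 0.0415, while Dcn was at 0 and below them and Lum and Rgs5 were at 0 there and in some of the others. The monocyte and neutrophil list, 0 of 6 tested, summed to 1.15 FPKM against 0.184 to 0.653. S100a8, at 1.05 FPKM against at most 0.620, and Ccr2, at 0.0969 against at most 0.0693, lay above the other 7, Ly6c2 was at 0 there and in 5 of them, and Plac8, S100a9 and Ly6g were at 0 in all 8. The border macrophage list, 6 of 7 tested, summed to 74.8 FPKM against 63.7 to 78.7. In it Mrc1 lay above, at 29.8 FPKM against 13.5 to 20.7, and Cd163 (0.126 against 0.538 to 2.02), F13a1 (0.791 against 1.07 to 1.43) and Ms4a7 (33.6 against 35.0 to 45.3) lay below. The endothelial list, 1 of 5 tested, summed to 2.55 against 4.63 to 7.25. In it Pecam1 lay below, at 0.159 FPKM against 4.25 to 6.97. Kdr, at 2.27 FPKM against 0.102 to 0.324, and Cdh5 lay above, and Cldn5 and Tek within. The astrocyte list, 1 of 7 tested, summed to 4.02 against 4.41 to 5.94, with Aldh1l1 below and Gfap and Sox9 above. The neuron list, 1 of 7 tested, summed to 2.54 against 3.29 to 4.24, with Syn1, Tubb3 and Map2 below and Rbfox3 above. The oligodendrocyte list, 2 of 8 tested, summed to 11.9 against 8.80 to 9.69, with Mbp and Sox10 above and Mag below. The dendritic cell list, 0 of 4 tested, summed to 0.248 against 0.224 to 0.643 and the lymphocyte list, 0 of 5 tested, to 0.0390 against at most 0.0330. Their part in the values of the members was not tested.

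Members also varied within groups, and in a shared direction. In Con, PARP14 and OGD_Con alike, the library numbered 2 was above that numbered 1 in 19 of 30 members (63.3%), against 17.5% of all models, and below it in 3 (10.0%), against 16.9%. Mmp12 held 9.06 and 16.0 FPKM in the Con pair, 9.32 and 18.5 in the PARP14 pair and 8.55 and 18.3 in the OGD_Con pair. Clec7a held 25.2 and 38.5, 26.2 and 41.0, and 39.5 and 46.6 FPKM in the same groups. Cd9 held 6.65 and 10.8, 7.0 and 10.7, and 6.96 and 9.22 FPKM. In each group of all 3 genes the library numbered 2 was the higher. Ch25h, Igf1 and Cd52 were the members with the opposite order in all 3 groups. The median difference of the members, averaged over these groups, was 0.18 on the log2 scale, that of all models 0.001.

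These differences were set beside those of the OGD_PARP14 pair. Across the 30 members, the mean difference between the libraries numbered 2 and 1 in Con, PARP14 and OGD_Con had a Pearson correlation of 0.54 and a Spearman correlation of 0.49 with the difference between the OGD_PARP14 libraries numbered 2 and 1, which share no library with it. Over all models the values were 0.07 and 0.05. Genes are not independent replicates, each point shares the same 8 libraries and their depth, and the members were chosen with their values in OGD_PARP14 replicate 2 known, so these are descriptions.

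**Figure D4:**
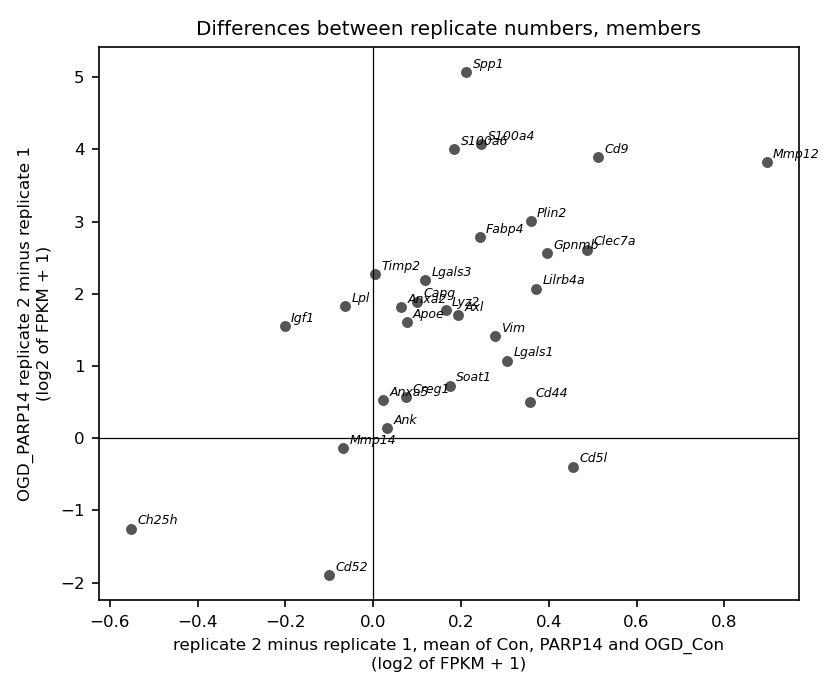
Difference between libraries numbered 2 and 1 for the 30 members on the log2(FPKM + 1) scale, with the mean over Con, PARP14 and OGD_Con on the horizontal axis and OGD_PARP14 on the vertical axis. Mmp12 and Cd9 are high on both axes, and Ch25h is low on both.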

How the data were processed

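The deposited table holds FPKM values per gene model and library, which the authors made, per the submitters' processing notes, with HISAT, StringTie and edgeR (versions not given in the sources used here). The notes name mm9, but 96.2% of its Ensembl models have the coordinates of GENCODE M21 (GRCm38), so coordinates are given as deposited. Library preparation marked strand and carried molecular identifiers, per the labels' protocols. Joined names share 1 value. Fragment depth was estimated from the smallest FPKM steps, and lower values carry more counting error.

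Values were taken as log2(FPKM + 1). limma 3.58.1 in R 4.3.3 fitted 4 group means to 11146 models over 7 libraries (3 residual degrees of freedom) and to all 8 (4 degrees), with Benjamini-Hochberg adjustment over all models and a call at an adjusted p under 0.05. The model was tested on simulated data with independent normal scatter and changes added to the OGD_Con pair only. Changes in OGD_PARP14 and shifts shared by replicate number were not simulated. Members and lists were chosen with earlier results of these data known. Up to 6 called members per comparison and direction were named, or else the 3 with the smallest p. Some members that were not called were given as well. For OGD_PARP14 replicate 2 all members kept were given. Of other lists up to 3 called genes per direction of change with OGD were named. Fabp5 matched no deposited name and was not analysed here. For these lists the highest model holding the name was used. Alternatives were pseudocounts of 0.1 and 5, no filter, a filter of 5 FPKM, median centring, quantile normalization, a variance trend with intensity, a replicate block, other gene models and leaving out each library. Python 3.11.15 with pandas 2.3.3, scipy 1.17.1 and matplotlib 3.10.9 was used. Promoter sequences are from RefSeq.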

Additional observations from a re-analysis of the deposited data

How the results depend on the processing

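Fold changes of the called members kept their direction under every alternative run. With all 8 libraries in the fit the count of members called fell to 0 in OGD_Con against Con (6 with 7 libraries), 0 in OGD_PARP14 against PARP14 (1) and 2 with OGD averaged over plasmids (8), where Ch25h and Mmp14 passed. Over all models the counts went from 2574 to 30, from 1194 to 24 and from 3653 to 688 in the same order. Without the filter on low values 2 of 32 members were called higher and 0 lower in OGD_Con against Con. Of 25004 models 963 were called higher and 1070 lower there. Averaged over plasmids fewer members were called than with the filter. In OGD_PARP14 against PARP14 the count was 2 with a pseudocount of 5, 3 with the filter of 5 FPKM and 2 with the longer Mmp14 model, chosen after the data were seen. Leaving out 1 library left the count of members the same or lower in OGD_Con against Con and lower averaged over plasmids. In OGD_PARP14 against PARP14 it moved the count either way. In the other comparisons all alternatives gave 0 calls. The calls over all models moved too in the comparisons of OGD against no OGD. A smaller share of them was called without the filter and without each library in turn, except OGD_PARP14 replicate 1. With the filter of 5 FPKM a larger share was called. Taking the highest of all models that hold a name chose the same model for each member. With the replicate number as a block, limma called 6 members in OGD_Con against Con (4 higher, 2 lower, without Timp2 at adjusted p = 0.0606; 10.9% and 12.6% of all models), 2 in OGD_PARP14 against PARP14 (1 higher, 1 lower; 4.72% and 4.61%) and 12 averaged over plasmids (8 higher, 26.7%, against 15.5% of all models, and 4 lower, 13.3%, against 18%). The deviations of same-numbered libraries correlated at 0.121 (Con and PARP14), 0.0925 (Con and OGD_Con) and 0.124 (PARP14 and OGD_Con) over all models. The other fits used no block. Correlations over all models cannot show whether the numbers pair the libraries for the members. In 19 of 30 members (63.3%, against 17.5% of all models) the library numbered 2 was the higher in each of these groups. Members outside the range of the other 7 libraries in OGD_PARP14 replicate 2 numbered 28, with 26 under the filter of 5 FPKM, 29 after quantile normalization or median centring and 20 at 1 log2 unit. No scaling moved the median of all models by over 0.1. OGD_PARP14 replicate 1 cannot be left out of comparisons that use it.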

Other observations

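The table also lists models under the names of 3 members on the strand opposite to the gene model used. The Apoe model on the plus strand of chromosome 7, from 19696276 to 19698179, held 0.0584 to 0.248 FPKM in the other 7 libraries and 12.1 FPKM there, while the Apoe gene model on the minus strand went from a highest of 2426 to 6114 FPKM. The Lyz2 model on the plus strand of chromosome 10, from 117277355 to 117288627, held 4.03 to 31.3 FPKM in the other 7 and 71.9 FPKM there. A Gpnmb model on the minus strand of chromosome 6, from 49047461 to 49048101, held 0.433 to 4.76 FPKM in the other 7 and 4.14 FPKM there, within their range.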
